A study of Mus musculus with 6 samples.

Results

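The genes described here are the output arm of the circadian clock in lung fibroblasts: 9 clock-controlled transcription factors and other targets, taken by name from a table of 43430 genes, with all 9 present in it. They are Dbp, Tef and Hlf, Nfil3, Bhlhe40 and Bhlhe41, Ciart, Usp2 and Wee1. They were chosen by name with their measured differences between the groups (log2 fold changes and calls over the same 6 libraries) already known, so their differences between the groups are given as a description, and no test is drawn from them. The cells came from the lungs of male C57BL/6J mice, 9 to 11 weeks old, and were sorted by flow cytometry for PDGFRA, a growth factor receptor carried by most lung fibroblasts. In the hypercapnia group 9 mice breathed 10% CO2 for 10 days, at normal oxygen per the design text. The 9 mice of the control group stayed in room air. Cells of 3 mice were pooled for each library, which gave 3 libraries per group, called M1 to M3 in room air and M4 to M6 in hypercapnia. A single time of exposure was sampled, and the labels used here give no time of day for the harvest, so a difference in clock phase at harvest and a difference in clock level cannot be told apart. In sorted bulk RNA, fewer cells of a type and less RNA per cell cannot be told apart either.

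The clock of a mammalian cell is a loop in which CLOCK or NPAS2, paired with BMAL1 (gene Arntl), activates genes through a short sequence called the E-box, and the PER and CRY proteins made from those genes shut the activators down. The output genes carry this rhythm onward. DBP, TEF and HLF, the PAR bZIP factors (basic leucine zipper proteins with a proline and acidic amino acid-rich domain), activate genes through the D-box, and NFIL3 (E4BP4) occupies the same site as a repressor. BHLHE40 and BHLHE41 (DEC1 and DEC2) and CIART (CHRONO) repress CLOCK-BMAL1 at E-boxes, USP2 is a ubiquitin-specific protease that acts on clock proteins, and WEE1 is a kinase that holds back entry into mitosis. A further element, the ROR element, is read by the activating ROR and the repressing REV-ERB receptors (genes Nr1d1 and Nr1d2), and Nfil3 is a known target of it.

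The sequences before the transcript starts of 5 members are shown first, because they hold matches to the motifs searched for here. They come from RefSeq on build GRCm38.p6, in which 7 of the 9 members had a window of 250 bases before to 50 after the start, 8 windows in all, since Tef had 2. Bhlhe40 and Wee1 had no entry. Both strands were searched for the E-box CACGTG, the E-prime box CACGTT, the D-box as TTATGTAA or TTACGTAA, the core TAGGTCA of the ROR element and the cAMP response element TGACGTCA, the site of CREB factors. The E-box, the second D-box form and the cAMP response element read the same on both strands, and no match overlapped another in the windows of the members. Stretches longer than 30 bases are printed only where no GENCODE M21 exon of the gene lies, 5′ to 3′ on the strand of the gene, with the matches in capitals.

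The window of Ciart held 3 E-boxes, at 116, 58 and 44 bases before the start, and 29 of all 32851 windows, or 0.0883%, held 3 or more. The stretch is chr3:95882252-95882478 on the minus strand, which lies just before the first exon.
Ciart: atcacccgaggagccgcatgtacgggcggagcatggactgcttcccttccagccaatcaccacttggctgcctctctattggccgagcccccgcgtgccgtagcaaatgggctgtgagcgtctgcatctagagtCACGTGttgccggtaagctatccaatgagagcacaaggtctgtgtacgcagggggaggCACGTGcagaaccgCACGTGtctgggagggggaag

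Each of the 2 windows of Tef held a single E-box, and so did that of Bhlhe41, against 7.15% of all windows with at least 1. The downstream Tef window, chr15:81811164-81811413 on the plus strand, lies between exons of the gene, and its E-box starts 138 bases before the start. The upstream Tef window lies within an exon of a longer transcript, so 30 bases around its E-box are shown, chr15:81802534-81802563. The E-box of Bhlhe41 starts 153 bases before the start, in chr6:145865559-145865670 on the minus strand, upstream of the gene.
Tef, downstream window: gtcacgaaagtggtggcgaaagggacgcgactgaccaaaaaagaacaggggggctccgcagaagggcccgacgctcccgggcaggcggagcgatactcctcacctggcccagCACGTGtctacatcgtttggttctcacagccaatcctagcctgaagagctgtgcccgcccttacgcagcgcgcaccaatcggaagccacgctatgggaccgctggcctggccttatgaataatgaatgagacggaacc
Tef, upstream window: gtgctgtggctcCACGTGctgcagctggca
Bhlhe41: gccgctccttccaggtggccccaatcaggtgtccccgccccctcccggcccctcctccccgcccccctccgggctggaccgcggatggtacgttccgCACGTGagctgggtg

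Nfil3 held the ROR element core, on the reverse strand at 12 bases before the start, as did 2.61% of all windows. It is shown with 30 bases in the first exon by GENCODE, chr13:52981040-52981069 on the minus strand. Hlf held a cAMP response element that starts 9 bases before the start, in a window outside its exons, chr11:90390918-90391167 on the minus strand. That element was in 1.79% of all windows.
Nfil3: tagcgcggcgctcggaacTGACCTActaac
Hlf: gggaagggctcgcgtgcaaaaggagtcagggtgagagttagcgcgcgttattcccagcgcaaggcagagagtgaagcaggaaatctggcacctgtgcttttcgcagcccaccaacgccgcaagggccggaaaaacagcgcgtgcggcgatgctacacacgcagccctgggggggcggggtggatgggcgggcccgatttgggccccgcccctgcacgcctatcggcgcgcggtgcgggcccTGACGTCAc

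The windows of Dbp and Usp2 held none of these letters, and no member window held a D-box, which 1.06% of all windows did. The start of the Usp2 window, at 44084920 on chromosome 9, lies inside the gene, whose 5′ end at 44067021 had no window. The search covers only these 300 bases per window, and a match is a stretch of letters, not a measured binding site.

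**Figure D1:**
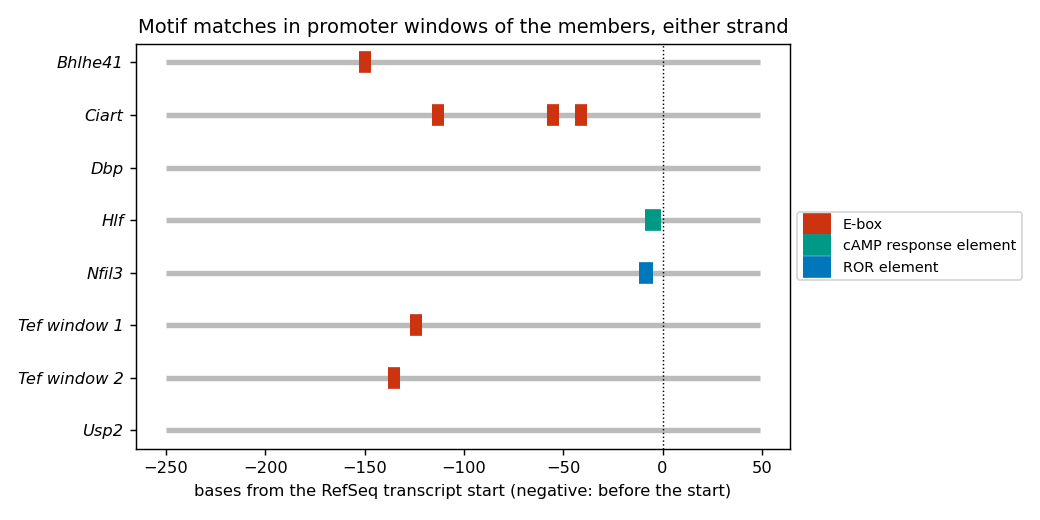
Matches to the searched motifs in the RefSeq promoter windows of 7 members. The x axis gives bases from the transcript start, each grey line is 1 window and each coloured mark 1 match on either strand. Ciart holds 3 E-boxes, Tef (in both windows) and Bhlhe41 1 each, Nfil3 a ROR element, Hlf a cAMP response element, and Dbp and Usp2 none.

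Levels are given as CPM (read counts of a gene scaled to a common library size, with TMM composition factors), and differences as edgeR log2 fold changes of hypercapnia over room air with their standard error (SE). Totals per library ran from 8999780 to 10198336 counts, and the members had between 27 counts (Ciart in M3) and 4359 counts (Tef in M6). All 9 members passed edgeR's filter on low counts. The sorted receptor Pdgfra stood between 2530 and 3707 CPM over the 6 libraries. The summed level of 8 fibroblast markers ran from 26829 to 28734 CPM in room air and from 25743 to 28785 in hypercapnia. The pan-leukocyte marker Ptprc had 2 counts in all, and summed leukocyte markers stayed between 10.9 and 60.7 CPM. Endothelial markers were present in every library: their sum over 16 genes ran from 615 to 2308 CPM in room air, with M3 lowest, and from 2266 to 3628 in hypercapnia. All 16 had log2 fold changes above 0, with a median of 0.88, and none was called by edgeR (10 had an unadjusted p under 0.05). Endothelial RNA was thus higher on average in hypercapnia, although its sums overlapped between the groups (2308 CPM in M1 and 2266 in M6). The mean log2 CPM of these markers, used as a covariate below, did not overlap (4.86 to 6.62 in room air, 6.63 to 7.32 in hypercapnia). A fit with it therefore cannot separate endothelial RNA from the group. The part of endothelial RNA in the members' differences was not tested otherwise. Epithelial markers summed to 386 to 640 CPM in room air and 344 to 466 in hypercapnia. Immediate early genes, which respond within minutes to stimulation and tissue dissociation, summed over 10 genes to 28190, 16204 and 10763 CPM in M1, M2 and M3, and to 24870, 3919 and 7992 CPM in M4, M5 and M6. In these genes M1 and M4 were high in either group.

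In hypercapnia 8 of the 9 members had log2 fold changes above 0. The median over the members was 0.97, against 0.01 over all 13005 tested genes. By edgeR's quasi-likelihood test with Benjamini-Hochberg adjustment over all tested genes, 2 members, Tef and Hlf, had an adjusted p under 0.05, both higher, where 0.523% of all tested genes were called higher and 1.22% in either direction. No overlap between the groups was seen for 5 members (Tef, Hlf, Ciart, Usp2 and Wee1), against 18.0% of all tested genes. Since the members were chosen with this comparison known, nothing is read from these counts. Left out in turn, M2, M5 and M6 each took the count of called members to 0. All-gene calls were then 24 of 13412, 27 of 13333 and 42 of 13249. In these fits 7, 7 and 6 members had an unadjusted p under 0.05 in edgeR. With all libraries 7 members and 1567 of 13005 tested genes did. Without M4 the count of called members was 4, with Dbp and Bhlhe41 added, where 148 of 13410 genes were called. DESeq2 called 7 members, all but Nfil3 and Bhlhe40, and 435 of 13005 genes.

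**Figure D2:**
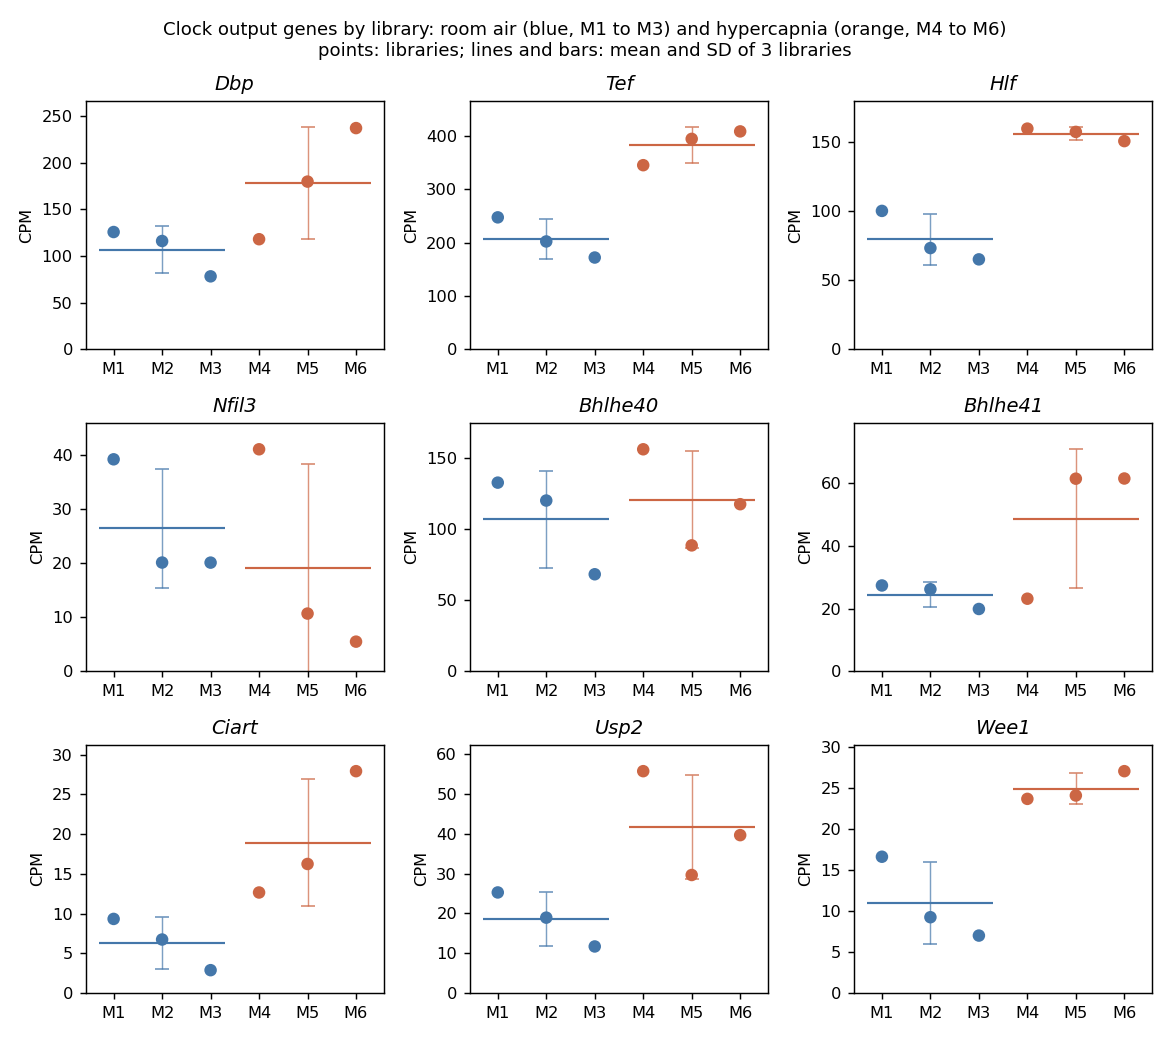
Level of each of the 9 members in each library, in CPM on a linear axis from 0. Points are libraries (blue for room air, orange for hypercapnia), horizontal lines the means and bars the SD of 3 libraries, and the lower bar of Nfil3 in hypercapnia is cut at 0. Tef, Hlf, Ciart, Usp2 and Wee1 have no overlap between groups, while M4 lies within the room air range for Dbp and Bhlhe41 and above it for Nfil3.

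Among the PAR bZIP activators, Tef and Hlf were higher in every hypercapnia library, and Dbp in 2 of 3. Tef, on chromosome 15 from 81802421 to 81826863 (ENSMUSG00000022389), stood at 247, 202 and 172 CPM in M1, M2 and M3, and at 345, 395 and 409 CPM in M4, M5 and M6. All hypercapnia libraries lay above all room air libraries. The means were 207 ± 37.9 and 383 ± 33.3 CPM (SD, n = 3), with a log2 fold change of 0.89 ± 0.14, or 1.85-fold.

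Hlf, on chromosome 11 from 90336536 to 90390895 (ENSMUSG00000003949), stood at 100.2, 73.2 and 65.0 CPM in room air and at 159.8, 157 and 151 CPM in hypercapnia. The hypercapnia libraries lay close together, with an SD of 4.69 CPM against 18.4 in room air, and again above all room air libraries. The log2 fold change of Hlf was 0.97 ± 0.15, or 1.96-fold. With the mean level of the endothelial markers as a covariate, Tef and Hlf had log2 fold changes of 0.72 ± 0.16 and 0.72 ± 0.15, both called. That level was lower in every room air library than in any hypercapnia library, so this fit cannot separate it from the group.

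Dbp, one of the most rhythmic transcripts of many tissues, lies on chromosome 7 from 45705088 to 45710203 (ENSMUSG00000059824). It stood at 126, 116 and 78.1 CPM in room air and at 118, 179.7 and 237 CPM in hypercapnia. M4 lay within the room air range and M5 and M6 above it, so the groups overlapped. The log2 fold change was 0.74 ± 0.24 with all libraries, 0.97 ± 0.20 without M4 and 0.48 without M6, the lowest value with a library left out. In its exons 18% of the bases are shared with Sphk2 on the opposite strand, and the strand setting of the counting is not given in the sources used here. Sphk2 itself stood between 33.3 and 41.3 CPM in all 6 libraries, with a log2 fold change of -0.04 ± 0.15.

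Compared per length of exon (RPKM, the CPM per kilobase), Dbp made up 45.2% to 51.4% of the summed PAR bZIP level in room air, Tef 34.1% to 37.9% and Hlf 14.5% to 17.0%. In hypercapnia the shares were 44.9% for Dbp, 37.5% for Tef and 17.6% for Hlf in M5 and 51.5%, 33.8% and 14.7% in M6, and only in M4 did Tef (40.9%) exceed Dbp (36.8%). The 3 transcripts thus kept the order Dbp, Tef, Hlf in 5 of 6 libraries.

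Nfil3, the repressor that shares the D-box with them, was uneven within the hypercapnia group. It lies on chromosome 13 from 52967209 to 52981073 (ENSMUSG00000056749) and stood at 39.2, 20.1 and 20.1 CPM in M1, M2 and M3, and at 41.0, 10.6 and 5.44 CPM in M4, M5 and M6. M4 was the highest of all 6 libraries and M5 and M6 were the 2 lowest. The log2 fold change was -0.48 ± 0.58, smaller than its SE, and ranged from -1.72 ± 0.38 without M4 to -0.04 ± 0.50 without M6. The summed level of the immediate early genes was also highest in M1 and M4 and lowest in M5 and M6. Their part in the level of Nfil3 was not tested apart from a fit with their mean level as a covariate, added after the data were seen, in which the log2 fold change of Nfil3 was -0.09 ± 0.37. With the endothelial level as a covariate it was -1.39 ± 0.64, and by limma-voom -0.98 ± 0.53, so the size of the Nfil3 difference depended on the fit.

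Per length, the summed PAR bZIP level was 88.4, 75.4 and 57.7 RPKM in M1, M2 and M3, and 107, 134 and 154 RPKM in M4, M5 and M6, with no overlap between groups. Its ratio to Nfil3 was 4.57, 7.61 and 5.83 in room air and 5.29, 25.5 and 57.3 in hypercapnia. In M4 the ratio of activators to repressor thus lay in the room air range, since Nfil3 was high there as well, and in M5 and M6 it was several times higher. These are ratios of transcripts, and the proteins were not measured.

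**Figure D3:**
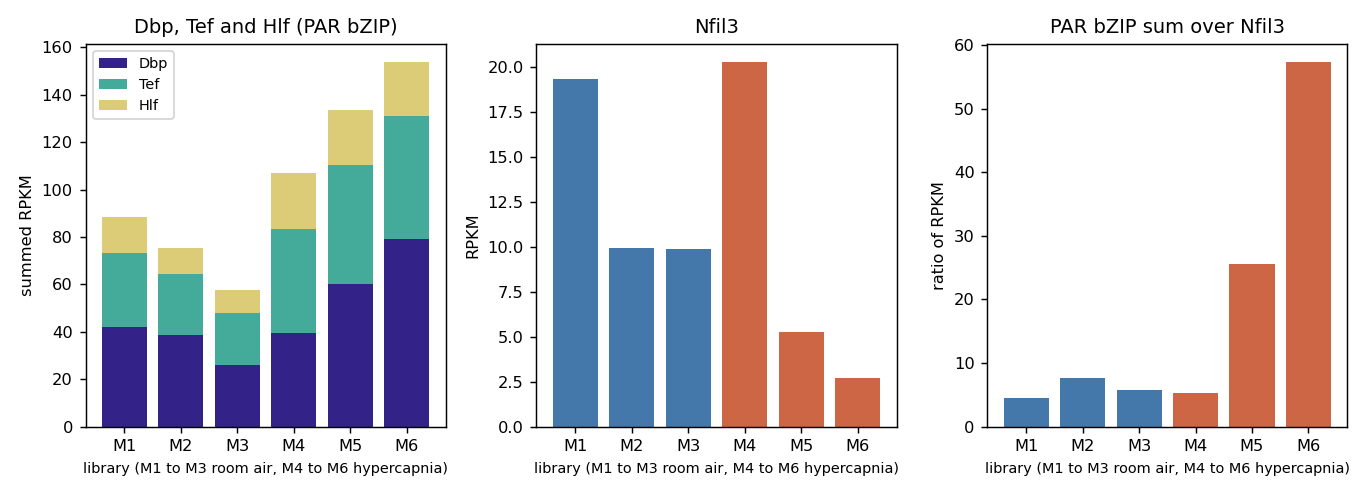
Per-length levels (RPKM, linear axes from 0) in each library of Dbp, Tef and Hlf stacked (left), of Nfil3 (middle), and the ratio of the stacked sum to Nfil3 (right). Libraries M1 to M3 are room air and M4 to M6 hypercapnia. The ratio lies between 4.57 and 7.61 in room air and at 5.29 in M4, and reaches 25.5 in M5 and 57.3 in M6.

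Of the repressors at E-boxes, Ciart was higher in every hypercapnia library, Bhlhe41 in 2 of 3, and Bhlhe40 did not separate the groups. Ciart, on chromosome 3 from 95878503 to 95882251 (ENSMUSG00000038550) and the gene with 3 E-boxes shown above, stood at 9.32, 6.73 and 2.87 CPM in room air and at 12.6, 16.2 and 27.9 CPM in hypercapnia. Its groups did not overlap, although M1 and M4 lay close. The means were 6.30 ± 3.25 and 18.9 ± 7.99 CPM (SD, n = 3). The log2 fold change of 1.59 ± 0.41, or 3.02-fold, was the largest among the members, and it lay between 1.2 without M6 and 1.98 without M1.

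Bhlhe41, on chromosome 6 from 145858243 to 145865558 (ENSMUSG00000030256), stood at 27.4, 26.2 and 19.8 CPM in room air and at 23.1, 61.5 and 61.6 CPM in hypercapnia. M4 lay among the room air libraries, while M5 and M6 stood far above them. Over all libraries the log2 fold change was 0.998 ± 0.32, against 1.33 ± 0.18 without M4. With the immediate early level as a covariate it was 0.59 ± 0.30. In its exons 19% of the bases are shared with a gene model on the opposite strand, Gm43909. This model is not among the counted genes, so its level could not be read.

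Bhlhe40, a paralog of Bhlhe41 that is also induced by many stimuli, lies on the same chromosome from 108660629 to 108666925 (ENSMUSG00000030103). It stood at 133, 120.2 and 68.2 CPM in room air and at 156, 88.6 and 118 CPM in hypercapnia, and the groups overlapped. Its log2 fold change of 0.17 ± 0.25 was smaller than its SE and turned to -0.07 without M3, to -0.05 without M4 and to -0.34 ± 0.19 with the endothelial level as a covariate. With the immediate early level as a covariate it was 0.48 ± 0.17. Per length Bhlhe40 exceeded Bhlhe41 by 4.91 to 6.93 times in room air, by 9.65 times in M4, and by 2.06 and 2.73 times in M5 and M6.

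**Figure D4:**
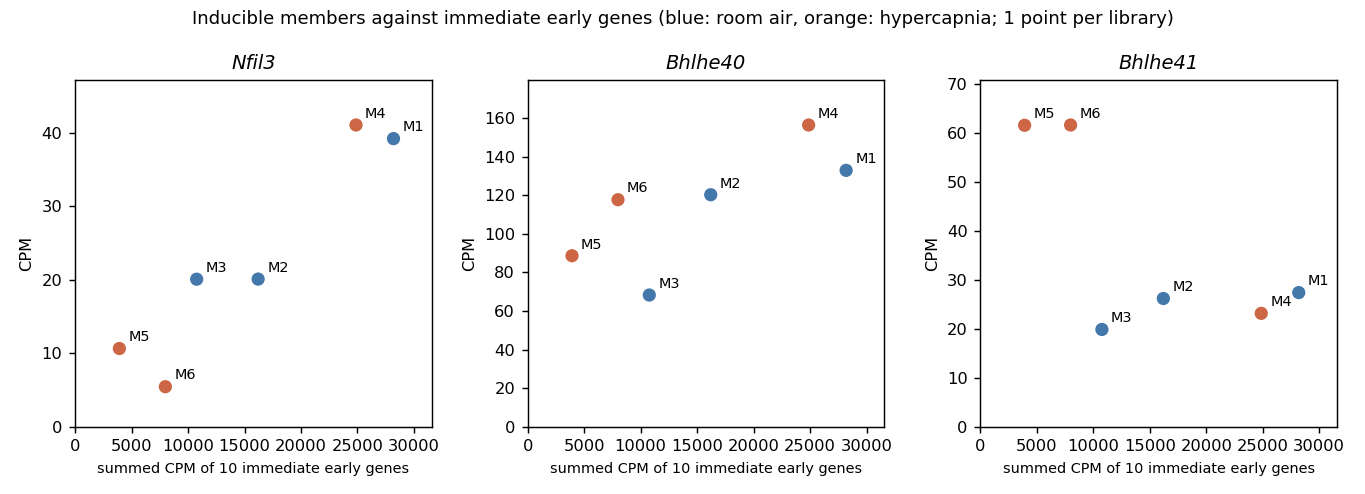
CPM of Nfil3, Bhlhe40 and Bhlhe41 (y axes, linear from 0) against the summed CPM of 10 immediate early genes (x axes) in each library, blue for room air and orange for hypercapnia. The panels were chosen after the values were seen. M1 and M4 lie at the right of every panel and hold the 2 highest Nfil3 and Bhlhe40 levels, while the 2 highest Bhlhe41 levels belong to M5 and M6 at the left.

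The other 2 targets, Usp2 and Wee1, were higher in every hypercapnia library. Usp2, on chromosome 9 from 44067021 to 44095627 (ENSMUSG00000032010), stood at 25.2, 18.9 and 11.7 CPM in room air and at 55.7, 29.6 and 39.6 CPM in hypercapnia. M5 lay only a little above M1, and the groups did not overlap. Usp2 differed by a log2 fold change of 1.16 ± 0.29, or 2.24-fold. This was 0.61 ± 0.26 with the endothelial level as a covariate. With the immediate early level, the covariate added after the data were seen, it was 1.51 ± 0.20. The adjusted p over all genes by edgeR was 0.0972 without a covariate, 0.283 with the endothelial level and 0.00467 with the immediate early level.

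Wee1, on chromosome 7 from 110122046 to 110143286 (ENSMUSG00000031016), stood at 16.6, 9.25 and 7.004 CPM in room air and at 23.7, 24.1 and 27.1 CPM in hypercapnia. As for Hlf, the hypercapnia libraries were close together and the room air libraries were spread, with SDs of 1.85 and 5.04 CPM. Wee1 differed by a log2 fold change of 1.19 ± 0.28, or 2.29-fold. It lay at 0.79 ± 0.30 with the endothelial level as a covariate and at 1.62 ± 0.23 without M1.

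Among the members the order of the levels per length was similar in both groups at its upper end. In room air the mean RPKM was 35.6 ± 8.40 for Dbp, 26.3 ± 4.82 for Tef, 22.8 ± 7.28 for Bhlhe40, 13.0 ± 5.44 for Nfil3 and 11.9 ± 2.75 for Hlf (SD, n = 3). It was 3.86 ± 1.41 for Usp2, 3.64 ± 0.60 for Bhlhe41, 3.21 ± 1.47 for Wee1 and 2.79 ± 1.44 for Ciart. The libraries of neighbours in this order overlapped at every step except from Hlf to Usp2, with 5 members above that step and 4 below it.

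In hypercapnia the order was Dbp (59.6 ± 19.9 RPKM), Tef (48.7 ± 4.23), Bhlhe40 (25.7 ± 7.22), Hlf (23.3 ± 0.70), Nfil3 (9.39 ± 9.49), Usp2 (8.65 ± 2.73), Ciart (8.38 ± 3.53), Wee1 (7.30 ± 0.54) and Bhlhe41 (7.25 ± 3.30). Neighbours did not overlap from Tef to Bhlhe40 and from Hlf to Nfil3. Nfil3 was below Hlf in each hypercapnia library. In room air it stood above Hlf by its mean, but the libraries were mixed. Nfil3 and Hlf were at 19.3 and 15.0 RPKM in M1, 9.91 and 11.0 in M2, and 9.90 and 9.74 in M3.

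The members shared an order of the libraries in room air but not in hypercapnia. In room air all 9 were highest in M1 and lowest in M3, an order that 20.3% of all tested genes showed. For Nfil3, though, M2 and M3 were nearly equal, with 191 and 189 counts. Among the room air libraries M3 also had the lowest endothelial and immediate early sums, and the part of either in this order was not tested. Among the hypercapnia libraries 5 members (Dbp, Tef, Bhlhe41, Ciart and Wee1) were lowest in M4 and highest in M6, and the other 4 (Hlf, Nfil3, Bhlhe40 and Usp2) were highest in M4. Of all tested genes 35% were lowest in M4, 34.1% highest in M4 and 34.1% highest in M6. The share both lowest in M4 and highest in M6 was not computed. For Bhlhe41 the levels in M5 and M6 were nearly equal (61.52 and 61.58 CPM), and Hlf varied little within hypercapnia (SD 4.69 CPM).

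The rest of the clock was read from a list of 17 core genes, of which 15 were tested. By edgeR 3 were called higher (Per2, Per3 and Cry1) and 4 lower (Npas2, Arntl, Nr1d1 and Clock), with a median log2 fold change of 0.15. Of all tested genes 1.22% were called in either direction. The list was chosen with earlier results of these data known, so nothing is read from its count. Values of the activators and of the ROR element receptors are given here. Arntl, the partner of CLOCK and NPAS2 at E-boxes, stood at 26.7, 30.2 and 43.2 CPM in room air and at 4.56, 1.67 and 0.56 CPM in hypercapnia. Among the hypercapnia libraries M4 thus had the most Arntl and M6 the least. The reverse order was seen for the 5 members lowest in M4 and highest in M6, and the same order for Hlf and Nfil3. For Hlf the 3 libraries differed little (159.8, 157 and 151 CPM). Bhlhe40 and Usp2 were highest in M4 and lowest in M5, and a link to Arntl was not tested. For Npas2, a ratio of counts is given because it had 363 counts in the room air libraries and 3 in hypercapnia: it was 131 times higher in room air, with an exact 95% interval of 44.4 to 636 for counting error only. Nr1d1 stood at 464, 514 and 439.6 CPM in room air and at 121, 219.8 and 256 CPM in hypercapnia (log2 fold change -1.25 ± 0.23, edgeR adjusted p = 0.0304). It was not called without M1, M2 or M5 (edgeR adjusted p of 0.055, 0.185 and 0.119) or with robust dispersion (0.129). In its exons 8.55% of the bases are shared with Thra on the opposite strand. Nr1d2 had a log2 fold change of 0.50 ± 0.15 that was not called (adjusted p = 0.181). The core list's calls fell to 2 without M2, to 4 without M1 or M5, and were 5 with the endothelial covariate.

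**Figure D5:**
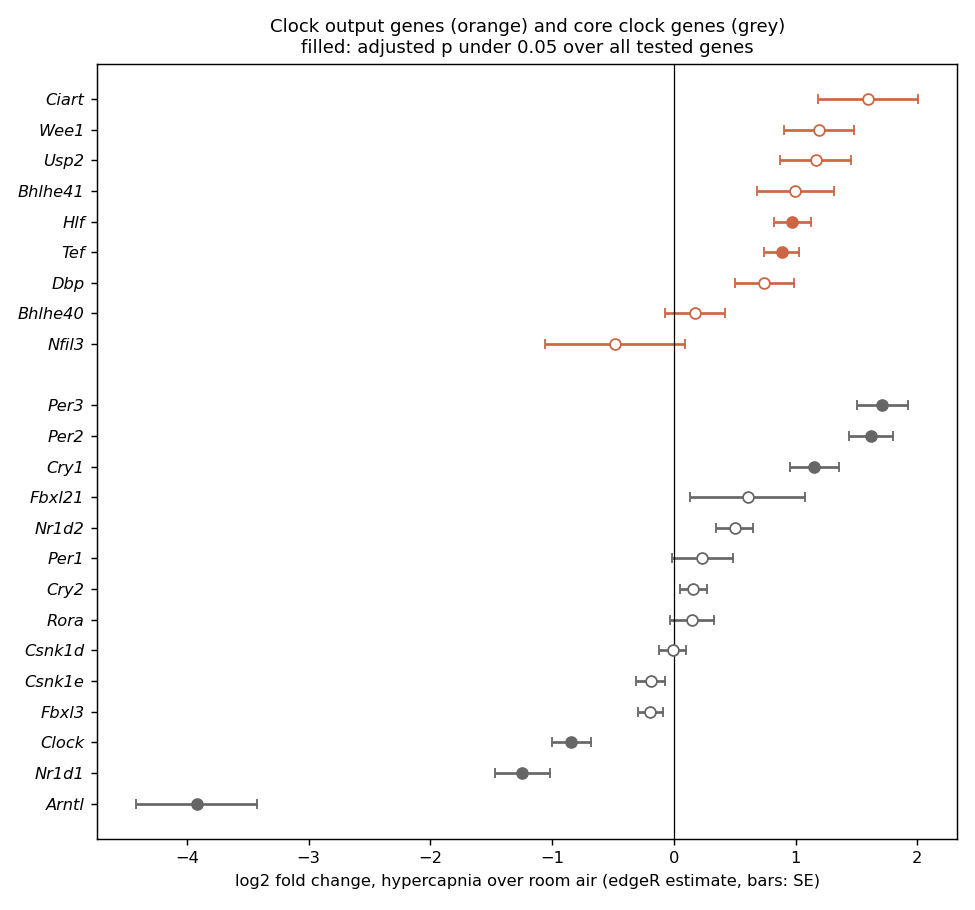
Log2 fold changes of hypercapnia over room air (x axis, edgeR estimates with SE bars) of the 9 members in orange and of 14 core clock genes in grey. Filled points have an adjusted p under 0.05 over all 13005 tested genes, and Npas2, with 3 counts in hypercapnia, is left out. The members lie between -0.48 and 1.59, with Tef and Hlf filled, while the core genes spread from -3.92 (Arntl) to 1.71 (Per3).

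A further list held 14 other genes known as clock-controlled or as PAR bZIP targets, 13 of them tested. By edgeR 2 were called higher, none lower and 11 were not called, with a median log2 fold change of 0.01. Of all tested genes 0.523% were called higher and 1.22% in either direction. This list, too, was chosen with earlier results of these data known. Tspan4, a tetraspanin gene, stood at 162, 141 and 109 CPM in room air and at 215, 306 and 331 CPM in hypercapnia (1.05 ± 0.18, adjusted p = 0.0258). Fmo2, the main flavin-containing monooxygenase of the mouse lung, rose from 3832 ± 361 to 6113 ± 690 CPM (SD, n = 3, 0.67 ± 0.11, adjusted p = 0.017 by edgeR). Neither was called without M2 (adjusted p of 0.174 for Tspan4 and 0.146 for Fmo2) or without M5 (0.133 and 0.103), and Tspan4 was also lost without M6 (0.112) and with the endothelial covariate (0.0507). Lonrf3 (1.09 ± 0.31, adjusted p = 0.143) was not called. Of the known PAR bZIP targets on the list, Por, the electron donor of cytochrome P450 enzymes, had a log2 fold change of 0.34 ± 0.12 (adjusted p = 0.235). Alas1, the first enzyme of heme synthesis, had -0.04 ± 0.20 (0.973). None of the 10 immediate early genes was called, and none had an unadjusted p under 0.05 by edgeR, with a median log2 fold change of -0.60 and 9 of 10 below 0. DESeq2 and limma-voom called none of them either, while edgeR called 9 with no filter on low counts and 1 (Fos) without M4. At an unadjusted p under 0.05 there were 9 without M4 and 8 with the endothelial covariate.

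The D-box, the site of the PAR bZIP factors and NFIL3, was followed beyond the members. Of 9897 tested genes with a RefSeq window 123, or 1.24%, were called, 54 higher and 69 lower, with a median log2 fold change of 0.01. Of the 82 genes with a D-box in a window 2, or 2.44%, were called, both higher, with a median of 0.08. They were Per3, whose window holds 2 D-boxes at 205 and 158 bases before the start, and Prnp, the prion protein gene, named after its values were seen (0.50 ± 0.10, edgeR adjusted p = 0.0474). Of the 1166 genes with an E-box 16, or 1.37%, were called, 5 higher and 11 lower, with a median of -0.01. The E-prime box had 14 of 634 genes called (2.21%), 6 higher and 8 lower. The ROR element had 3 of 219 (1.37%) and the cAMP response element 3 of 353 (0.85%). No motif class was tested against the rest.

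For the PAR bZIP members, the genes with the most similar pattern were sought among 10397 other tested genes whose mean CPM was 5 or more, by Pearson's r of log2 CPM over the 6 libraries. The value of r is a description over 6 libraries that share the 2 groups, and no p is given. For Tef they were Mgat5 (r = 0.996), Fstl1 (0.995) and Maco1 (0.995), and for Hlf Gbp4 (0.995), Als2cl (0.995) and Tmem63b (0.994). For Dbp they were Wrap53 (0.992), Lrrn4cl (0.987) and Armc9 (0.974). The scale of the changes differed. Maco1, for example, had a log2 fold change of 0.74 ± 0.13 and Fstl1, a secreted follistatin-like protein, of 0.25 ± 0.10, against 0.89 for Tef.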

How the data were processed

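The deposited values are raw read counts for 43430 Ensembl gene IDs in 6 columns, with no normalization. The mm10 build, HTSeq, TopHat2 2.1.0, FastQC and bcl2fastq 2.17.1.14 are named, without roles, per the submitters' processing notes. The annotation release and strand setting were not stated there or in the labels (not given in the sources used here). Column names show the group but match no single sample title, so columns were assigned to groups only. Symbols, positions, exon lengths and exon overlaps came from GENCODE M21 on the same build (42462 IDs named).

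Groups were compared in R 4.3.3 with the quasi-likelihood test of edgeR 4.0.16 (two-sided), with TMM factors, the group as the only term, 4 residual degrees of freedom and filterByExpr with a minimum count of 10, which kept 13005 genes. Adjusted p-values (Benjamini-Hochberg) under 0.05 are calls. The SE is the log2 fold change divided by the square root of F. RPKM is the TMM-scaled CPM per kilobase of merged exon. A count of 3 is 0.281 to 0.354 CPM in these libraries. The steps were tested on simulated data first. Alternatives were RLE factors, no factors, 2 other filters, DESeq2 1.42.0, limma-voom (limma 3.58.1), robust dispersion, an endothelial covariate and each library left out, with an immediate early covariate added after the data were seen.

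Members and lists were chosen with earlier results of these data known. The genes named are the 9 members, the 8 core clock genes and up to 4 genes of each other list with the smallest p, 3 similar genes for each PAR bZIP member and sort checks. Alas1, Sphk2 and Prnp were named after their values were seen. No 2 libraries were repeats of each other (chi-square per degree of freedom at least 12.6 for every pair). The libraries are pools of animals, so p-values measure the spread between pools.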

Additional observations from a re-analysis of the deposited data

How the results depend on the processing

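The number of genes called, 159 of 13005, was 756 with no filter on low counts, 435 by DESeq2 and 255 with robust dispersion, and 24 to 148 with a library left out (24 without M2, 27 without M5 and 42 without M6). Without composition factors it was 97 higher and 75 lower, against 68 and 91. The number of members called, 2, was 7 with no filter and 7 by DESeq2, and 0 to 4 with a library left out. The core clock list's 7 calls became 2 to 6 with a library left out. The other clock-controlled list's 2 calls became 4 with no filter, 1 with the endothelial covariate and 0 to 2 with a library left out. The immediate early list's 0 calls became 9 with no filter and 0 to 1 with a library left out (Fos, without M4, adjusted p = 0.0381 by edgeR). The cause of these shifts was not tested. Bhlhe40 changed sign with the endothelial covariate (-0.34) and without M3 (-0.069) or M4 (-0.05). Its values with a library left out reached 0.36 (without M1), and with the immediate early covariate it was 0.48. Pecam1 did so with the endothelial covariate (-0.15), which contains it, and Col1a1, at -0.04, with no composition factors (0.027) and without M2 (0.0056) or M4 (0.021), with -0.119 without M5 as the lowest value with a library left out. No other refitted gene changed sign in 569 refitted values for 38 genes. Of these values 489 kept both their direction and their side of the threshold. Alas1, Sphk2 and Prnp were not among the 38 genes. The E-box, ROR element and cAMP response element were in as many member windows with the 250 bases before the start alone. The planned comparison of protein sequences was not run. No paired analysis was possible because the columns carry no replicate numbers shared between the groups. With 3 libraries per group and single counts worth about 0.1 CPM, depth limits Ciart most among the members, with 27 counts in M3.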
